A study of Mus musculus with 12 samples.

Results

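Ubiquitin ligases choose the proteins that receive ubiquitin, and 55 genes of 10 ligase families were examined in female germline stem cells (FGSCs), germline cells of the mouse ovary that are kept in culture, in which Usp7 was overexpressed or knocked down. Genes were taken by name: every listed row whose symbol began with Rnf, Trim, Fbxo, Fbxl, Fbxw, Klhl, Asb, Cul, March or Herc followed by a digit, or with Siah. The rule found 10 of the 648 transcripts listed for overexpression and 51 of the 3156 listed for knockdown, 61 rows in all. Of these rows 57 were found by the printed symbol. The other 4 rows, of March10 and March7, carried symbols that had been turned into calendar dates, and were identified by their RefSeq transcript. No Herc gene was listed. The mouse RefSeq annotation holds 312 protein-coding genes with such names, of which 54 were listed in at least 1 table, and the 55th listed gene, Rnf227, stands there as a noncoding RNA. By family these were 13 of 83 Rnf genes, 11 of 68 Trim genes, 18 F-box genes (6 of 36 Fbxo, 9 of 18 Fbxl and 3 of 24 Fbxw), 5 of 37 Klhl genes, 2 of 18 Asb genes, 2 of 8 Cul genes, 2 of 11 March genes and 1 of 4 Siah genes.

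The cells were from C57BL/6 mice, and 4 groups of 3 libraries were made from total RNA: Usp7 overexpression, the control of the overexpression, Usp7 knockdown, and the control of the knockdown. The labels describe both controls only as control, and do not name the vector, the knockdown method or the culture conditions. Overexpression and knockdown were each set against their own control, and the comparisons share no library. The labels do not say whether replicates were separate cultures or animals, and the spread behind the p-values may therefore be technical.

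Ubiquitin is passed from an activating enzyme to a conjugating enzyme and from there to a substrate that a ligase holds. RNF and MARCH proteins carry a RING domain that binds the conjugating enzyme directly, and TRIM proteins add a B-box and a coiled coil to it. Cullins are scaffolds: F-box proteins bring substrates to CUL1 through SKP1, BTB-Kelch proteins of the KLHL family bring them to CUL3, and ASB proteins bring them to CUL5 through a SOCS box. USP7 is a deubiquitinase that removes ubiquitin from substrates and from several ligases, and in the germline ligases serve meiosis, the handling of retrotransposons and the remodelling of spermatids.

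Promoter sequences from RefSeq (GRCm38.p6, 250 bases before the transcription start to 50 bases after it) were found for 40 of the 55 genes, in 51 windows. The pair below is shown because Trim12a and Trim5, neighbours on chromosome 7 that were both almost without reads in overexpression, share an unbroken run of 241 bases, printed in capitals. Trim12a lies at chr7:104299893-104315558 and Trim5 at chr7:104263386-104288254, 11638 bases apart, both on the minus strand.
Trim12a: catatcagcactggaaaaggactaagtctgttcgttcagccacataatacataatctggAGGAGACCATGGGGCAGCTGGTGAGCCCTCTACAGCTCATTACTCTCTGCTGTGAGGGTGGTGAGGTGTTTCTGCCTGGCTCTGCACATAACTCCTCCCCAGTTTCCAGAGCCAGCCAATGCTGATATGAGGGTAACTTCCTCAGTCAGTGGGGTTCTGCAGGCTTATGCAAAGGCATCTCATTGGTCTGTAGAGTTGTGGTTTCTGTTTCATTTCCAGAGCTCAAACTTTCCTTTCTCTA
Trim5: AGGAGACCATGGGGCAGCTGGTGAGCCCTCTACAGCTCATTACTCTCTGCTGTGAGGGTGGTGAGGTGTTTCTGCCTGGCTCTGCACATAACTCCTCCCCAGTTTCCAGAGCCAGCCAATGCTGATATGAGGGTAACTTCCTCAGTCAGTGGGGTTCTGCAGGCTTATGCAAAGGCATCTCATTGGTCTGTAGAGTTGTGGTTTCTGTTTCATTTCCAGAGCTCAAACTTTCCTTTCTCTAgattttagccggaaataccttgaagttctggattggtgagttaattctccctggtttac
The likeness goes on into the transcripts, where 17.9% of the 50-base windows of Trim12a also occur in Trim5 and 8.26% of those of Trim5 in Trim12a. Reads from such stretches can be counted for either gene, so their separate values are uncertain.

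The next window belongs to Fbxo5, the F-box gene with the highest fold among the well-counted F-box transcripts in knockdown. It was searched for the cell-cycle homology region (CHR), an element of promoters active late in the cell cycle, as TTTGAA on either strand. Capitals mark the match, which lies 4 to 9 bases after the start on the opposite strand of the gene (window at chr10:5805416-5805715, minus strand).
Fbxo5: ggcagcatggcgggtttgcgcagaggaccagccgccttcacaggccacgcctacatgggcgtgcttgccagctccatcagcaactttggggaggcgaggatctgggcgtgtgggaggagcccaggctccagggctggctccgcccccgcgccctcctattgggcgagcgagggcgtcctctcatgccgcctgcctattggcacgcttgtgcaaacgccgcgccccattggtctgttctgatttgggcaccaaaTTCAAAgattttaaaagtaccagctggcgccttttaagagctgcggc
A CHR match was present in 8 of the 51 windows (15.7%), against 17.9% of all 32851 mouse windows of this length. Of the windows of genes higher in knockdown 7 of 24 (29.2%) held one, and of those of genes lower in knockdown 1 of 18 (5.56%). The C/EBP-ATF element, searched as TGATGNAA on either strand, letters that do not contain the CHR, was found in 0 of the 51 windows and in 3.97% of all windows. A match describes the letters only, and these shares were not tested.

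The last set is shown because these 3 genes were higher with overexpression and lower with knockdown. Rnf17 had the same pattern, but no promoter window was found for it. Capitals mark CG dinucleotides, of which the March10 window (chr11:105456686-105456985, minus strand) holds 22, the Fbxo36 window (chr1:84839591-84839890, plus strand) 18 and the first Trim69 window (chr2:122160458-122160757, plus strand) 4. The second Trim69 window, not shown, holds 8. The median was 20 over the 51 windows and 7 over all mouse windows.
March10: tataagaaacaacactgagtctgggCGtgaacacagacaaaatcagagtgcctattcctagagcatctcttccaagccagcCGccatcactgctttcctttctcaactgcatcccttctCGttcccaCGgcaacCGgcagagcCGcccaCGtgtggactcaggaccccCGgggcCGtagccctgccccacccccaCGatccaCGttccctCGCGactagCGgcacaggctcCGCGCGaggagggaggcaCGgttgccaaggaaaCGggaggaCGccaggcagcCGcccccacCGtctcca
Fbxo36: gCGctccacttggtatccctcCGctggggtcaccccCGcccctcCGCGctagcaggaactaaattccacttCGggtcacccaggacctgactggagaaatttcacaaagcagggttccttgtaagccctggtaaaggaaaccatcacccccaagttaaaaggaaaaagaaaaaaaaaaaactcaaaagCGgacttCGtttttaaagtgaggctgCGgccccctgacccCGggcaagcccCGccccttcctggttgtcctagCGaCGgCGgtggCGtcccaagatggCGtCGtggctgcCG
Trim69: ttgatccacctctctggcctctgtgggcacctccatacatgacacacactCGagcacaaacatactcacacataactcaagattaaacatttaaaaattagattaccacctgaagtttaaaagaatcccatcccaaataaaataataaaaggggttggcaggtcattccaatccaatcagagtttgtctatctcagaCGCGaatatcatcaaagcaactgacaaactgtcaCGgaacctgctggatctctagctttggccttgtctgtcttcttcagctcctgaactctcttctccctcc

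Values are normalized counts, the reads of a transcript divided by a size factor of its library, as deposited. Both tables hold only transcripts that had passed the authors' own test, with a fold of at least 1.5 in the authors' deposited tables. Nearly every listed transcript therefore differs between groups by selection, and only direction, size and the pattern over libraries describe the genes. Listed counts summed to 131157 to 155114 in the overexpression libraries and 128056 to 139647 in their controls, and to 5376105 to 5520326 in the knockdown libraries and 3012377 to 3221343 in their controls. The ribosomal precursor Rn45s made up 58.7% to 65.3% of the listed counts in knockdown and 51.5% to 53.6% in its controls. Usp7 itself was not analysed here, so the labels could not be checked by it. Of 13 germ cell markers, Mael and Tex101 were listed for overexpression, both higher, and 6 were listed for knockdown, of which 5 could be tested and were lower. In bulk RNA, fewer cells of a type and less RNA per cell cannot be told apart. Replicate 2 of the knockdown control stood apart: 255 of its 3156 transcripts lay more than 1 on the log2 scale above both other controls, 5 of the ligase rows among them.

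In overexpression, March10, Rnf17, Trim69, Asb2, Fbxo36 and Fbxl5 were higher, and Trim12a, Trim80 and Rnf133 were lower and had almost no reads. All 9 of the 10 rows that entered the test passed it (limma on log2(normalized count + 1), Benjamini-Hochberg adjusted p under 0.05), against 100% of the 613 transcripts tested, and in 9 of 9 the groups did not overlap, which also held for 100% of those tested. By direction 6 were higher, where 65.3% of tested transcripts were higher, and 3 were lower, where 34.7% were. The members' shares therefore lay near those of the table, and their median log2 fold of 1.31 equalled that of all tested transcripts.

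**Figure D1:**
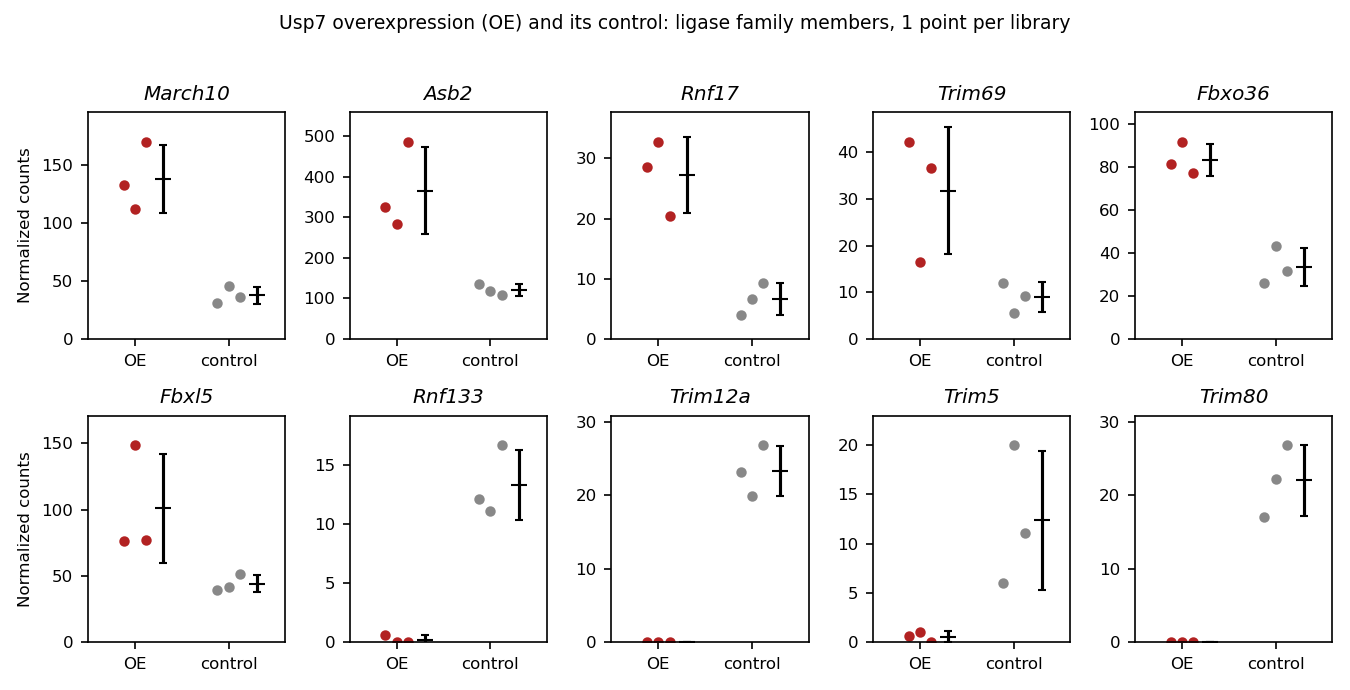
Normalized counts (vertical axis, starting at 0 with its own range in each panel) of the 10 ligase transcripts listed for overexpression. Each point is 1 library, overexpression (OE, red) left of its control (grey), and the black bar gives the mean and SD of 3 libraries. March10, Asb2, Rnf17, Trim69, Fbxo36 and Fbxl5 were higher, as scaled by the authors, in all 3 overexpression libraries than in any control, and Rnf133, Trim12a, Trim5 and Trim80 lay at or near 0.

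Among the RING ligases, March10, known from rat as a microtubule-associated ligase of elongating spermatids, had 132, 111 and 170 normalized counts in the overexpression libraries, against 31.2, 45.4 and 36.1 in their controls. All 3 overexpression libraries lay well above every control. The log2 fold was 1.84 ± 0.23 (SE, n = 3 per group), or 3.59-fold higher (limma, adjusted p = 3.1e-05). March10 lies at chr11:105360798-105457701 (GRCm38) and is protein-coding. Rnf17, a RING and Tudor domain protein of germ cell granules that mouse spermatids need, had 28.6, 32.8 and 20.4 normalized counts in overexpression, against 4.02, 6.65 and 9.25 in the controls. The lowest overexpression library had more than double the count of the highest control, with a log2 fold of 1.92 ± 0.36 (SE).

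Rnf133, a ligase of the endoplasmic reticulum found in testis, moved the other way. It had 0.650, 0 and 0 normalized counts in overexpression, against 12.1, 11.1 and 16.6 in the controls, which is 1 read in all against 40. Reads were taken as the normalized count over the smallest step of each library. The ratio of control to overexpression was 42.8, with an exact 95% interval of 7.26 to 1734 that covers counting error only. The gene was listed for overexpression only.

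The Trim family held the lowest values. Trim12a, a rodent relative of TRIM5, which restricts retroviruses in primates, had 0 normalized counts in all 3 overexpression libraries, against 23.1, 19.9 and 26.8 in the controls. Trim80 likewise had 0 in all 3, against 17.1, 22.2 and 26.8. Set against a floor of 3 reads over the group, Trim12a was at least 24.99-fold lower and Trim80 at least 23.56-fold lower. The exact 95% lower limits of the ratio of control to overexpression, which also count the error of the control reads, were 19.8 for Trim12a and 18.6 for Trim80. No overexpression library held a read of either gene, while each control held 17 to 29 reads.

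Trim5, the neighbour of Trim12a, had too few counts for the test, with 0.650, 1.09 and 0 in overexpression, against 6.04, 19.9 and 11.1 in the controls. These are 2 reads against 36, a ratio of control to overexpression of 19.3 (exact 95% interval 4.96 to 165). The groups did not overlap, and control replicate 2 was the highest. In the authors' deposited table the log2 folds of these transcripts were -7.00 for Trim12a, -6.92 for Trim80, -5.24 for Rnf133 and -4.31 for Trim5, where limma on log2(normalized count + 1) gave -4.59, -4.50 and -3.57 for the first 3, since the added 1 shrinks folds near 0.

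Trim69, which binds microtubules in human cells, was the Trim gene that was higher, with 42.3, 16.4 and 36.7 normalized counts in overexpression, against 12.1, 5.54 and 9.25 in the controls. Overexpression replicate 2 was low beside the other overexpression libraries and still above every control. The log2 fold was 1.67 ± 0.42 (SE), the least precise of the 6 increases.

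Among substrate adaptors, Asb2, which brings filamins to a cullin ligase, had 326, 284 and 486 normalized counts in overexpression, against 136, 119 and 107 in the controls. Even the lowest overexpression library had more than double the highest control, a log2 fold of 1.56 ± 0.21 (SE). Fbxo36, an F-box protein, had 81.3, 91.8 and 77.4, against 26.2, 43.2 and 31.4, without overlap (log2 fold 1.31 ± 0.24). Fbxl5, the iron-sensing F-box protein that targets an iron regulatory protein, had 76.8, 149 and 77.4, against 39.2, 42.1 and 51.8. Overexpression replicate 2 was the highest, with the other overexpression libraries close together, and the log2 fold was 1.11 ± 0.28.

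How many of the 6 increases passed depended on how libraries were scaled. Scaled to the total of the listed transcripts, all 6 passed, as did all 613 tested transcripts. With scaling by the median of ratios over the listed transcripts, which shifted the median of all tested transcripts by -1.20 on the log2 scale, 47.4% of the 477 calls were higher. Of the 6 ligase genes 1 (March10) still passed, Rnf17 had 0.80, Trim69 0.53, Asb2 0.34 and Fbxo36 0.12, and Fbxl5 had -0.10. With TMM factors, which shifted it by -0.74, 4 of the 6 passed, and Fbxo36 (0.58) and Fbxl5 (0.36) did not. Of the 519 calls 59% were then higher. The 3 tested decreases passed under each scaling, which follows from their having 0 or 1 read in overexpression, and March10 passed under each as well.

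Of the ubiquitin genes outside these families, few were listed for overexpression. From 81 other RING and U-box ligases 2 were listed, and both fell: Neurl3 to 1220, 943 and 1369 normalized counts in overexpression, against 2476, 2449 and 2474 in the controls (log2 fold -1.08 ± 0.16), and Znrf4, a testis-expressed ligase (-1.64 ± 0.36). From 70 partners of cullin ligases Cish, a SOCS box protein, was listed and higher (0.93 ± 0.21). None of 21 HECT ligases, 18 genes of the anaphase-promoting complex or 14 ligases known to bind USP7 was listed.

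In knockdown, the families split almost evenly: Fbxo5, Asb2, Trim59, Klhl5 and Rnf145 were among those higher, and Klhl24, Rnf213, Cul9 and both March genes among those lower. Of the 51 rows 47 could be tested and all 47 passed (limma, adjusted p under 0.05), against 99.9% of the 2902 transcripts tested. The groups did not overlap in 47 of 47, against 99.5% of those tested. There were 24 higher rows, where 49.1% of tested transcripts were higher, and 23 lower rows, where 50.7% were. Sizes were moderate: 20 of 47 (42.6%) differed by more than 1 on the log2 scale, against 55.7% of all tested transcripts, and the median absolute log2 fold was 0.96, against 1.07.

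Of all knockdown calls 49.2% were higher. In the larger families the share was 41.7% of Rnf, 57.1% of F-box and 62.5% of Trim rows. Some of the increases turned below 0 when libraries were scaled to the total of the listed transcripts. The Klhl genes were 4 higher (2 of which so turned) and 1 lower, and the Trim genes 5 higher (4 turned) and 3 lower. The 14 tested F-box rows were 8 higher (5 turned) and 6 lower, and the 12 Rnf rows 5 higher (1 turned) and 7 lower. The Asb genes were 2 higher (0 turned) and 0 lower. The Cul genes, Siah2 and all 3 March rows, which belong to 2 genes, were lower. Numbers per family are small, and families were not tested against each other. Listed leukocyte and epithelial markers were lower. The 2 leukocyte markers of 7 summed to 140 to 171 normalized counts in knockdown and 384 to 432 in the controls. The 2 epithelial markers of 6 summed to 41.6 to 56.9 in knockdown and 100 to 129 in the controls. Of the 3 listed fibroblast markers 1 was higher (Vim, log2 fold 0.64) and 2 were lower. The part of these markers in the ligase values was not tested.

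**Figure D2:**
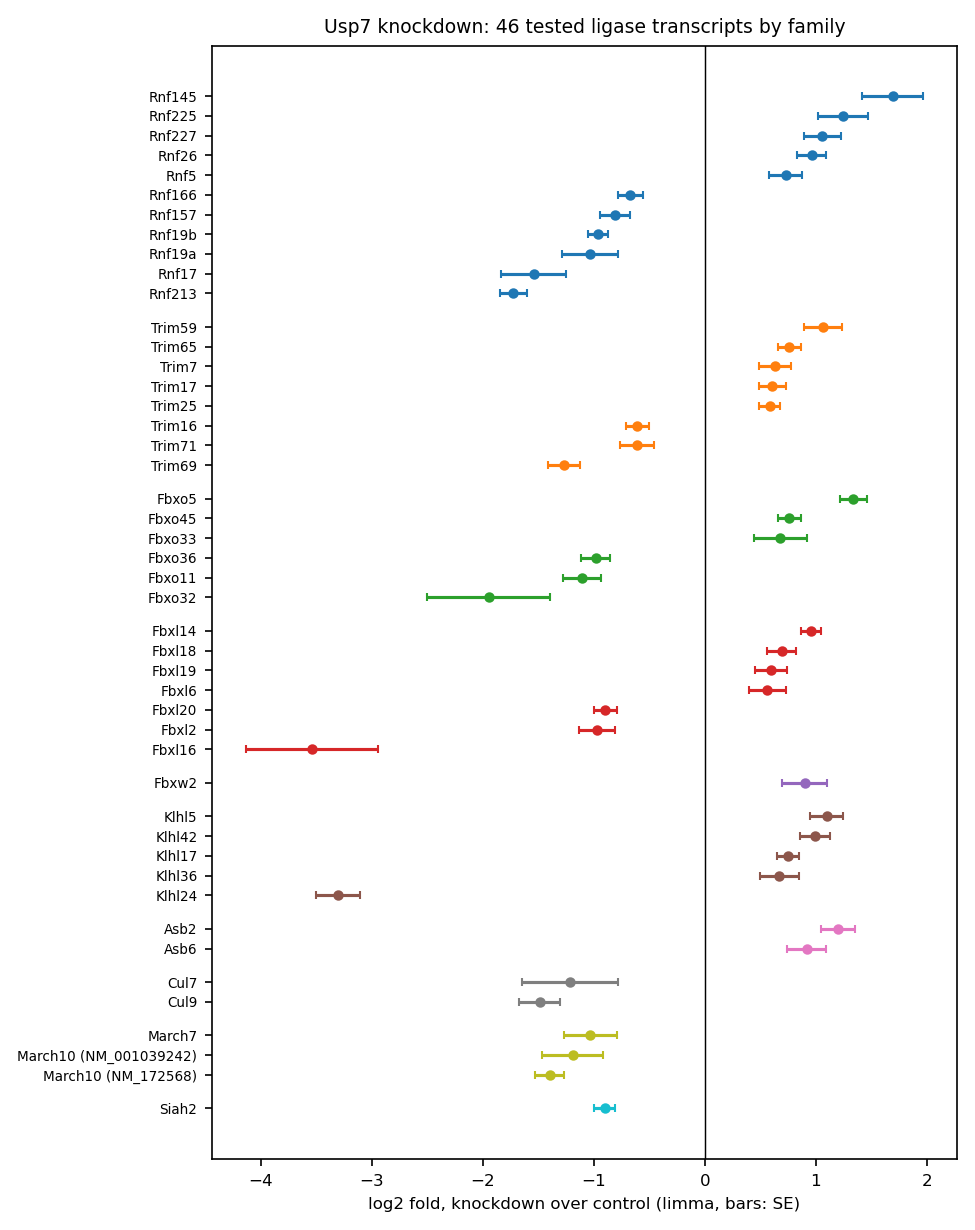
Log2 fold of knockdown over its control (horizontal axis, bars are the SE from limma, n = 3 per group) of 46 tested ligase transcripts, grouped and coloured by family and ordered within each. Rnf145 at 1.69 was the highest, and Fbxl16 at -3.54 and Klhl24 at -3.30 the lowest.

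Klhl24, a CUL3 adaptor known in human skin for turning over keratin 14, fell most among the transcripts with a mean of at least 100 normalized counts. It had 38.5, 51.4 and 29.1 in knockdown, against 356, 394 and 420 in the controls. Every knockdown library was far below every control, with a log2 fold of -3.30 ± 0.20 (SE, n = 3 per group), or 9.84-fold lower (limma, adjusted p = 6.6e-06). Klhl24 lies at chr16:20097553-20129226 (GRCm38) and is protein-coding. The other listed Kelch genes were higher with the authors' scaling. Klhl42, which in human cells controls the microtubule-severing enzyme katanin, had 538, 436 and 398, against 214, 237 and 231, without overlap (0.99 ± 0.13). Klhl5 was 1.10, Klhl17 0.75 and Klhl36 0.67 on the log2 fold scale.

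Among F-box genes, Fbxo5 had 498, 463 and 521 normalized counts in knockdown, against 219, 172 and 195 in the controls. It encodes EMI1, an inhibitor of the anaphase-promoting complex, the ligase that drives exit from mitosis. The 3 libraries of each group lay close together, and the log2 fold was 1.34 ± 0.12 (limma, adjusted p = 2.6e-05). Fbxo5 lies at chr10:5799158-5805465 (GRCm38) and is protein-coding. Fbxo11, which targets BCL6 in human B cells, was lower, with 91.5, 68.6 and 79.0, against 141, 179 and 201 (-1.11 ± 0.17). Fbxl14, which targets the transcription factor Snail, had 1018, 948 and 917, against 483, 486 and 514 (0.96 ± 0.09), and every knockdown library was far above every control. Fbxl2, an F-box protein held at membranes by a lipid, had 90.4, 67.8 and 66.5, against 156, 158 and 127, without overlap (-0.97 ± 0.17).

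The remaining tested F-box rows ranged on the log2 fold scale between 0.56 for Fbxl6 and 0.90 for Fbxw2 where they were higher. Fbxo45 was 0.76, Fbxl18 0.69, Fbxo33 0.68 and Fbxl19 0.60. Fbxl20 was -0.89 and Fbxo36 -0.98. Fbxo32, the muscle atrophy gene atrogin-1, had 6.24, 0.779 and 5.54 normalized counts, against 15.5, 19.0 and 13.5 (-1.94 ± 0.55). Fbxl16 had 0, 3.12 and 4.16, against 35.1, 32.0 and 26.9 (-3.54 ± 0.59). Both sets are low, and the size of each fold moved with 1 library. The log2 fold was -1.29 for Fbxo32 without knockdown replicate 2 and -2.80 for Fbxl16 without knockdown replicate 1. Both decreases still passed with any 1 library left out. Fbxo33 did not pass without control replicate 2 (0.61, adjusted p = 0.053 in limma). Its fold moved more without knockdown replicate 3, to 0.37, and still passed.

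Of the Rnf genes, Rnf213, a very large ATPase and ligase tied to moyamoya disease in humans, was lowest, with 187, 172 and 152 normalized counts in knockdown, against 542, 631 and 525 in the controls. Every knockdown library was far below every control, and the log2 fold was -1.73 ± 0.12, or 3.31-fold lower. Rnf227, listed by a noncoding transcript record, was the highest with a mean of at least 100, with 196, 178 and 198, against 109, 97.8 and 71.0 (1.06 ± 0.17). Rnf145, a ligase of the endoplasmic reticulum that responds to cholesterol, was higher still at fewer counts, with 76.9, 56.9 and 49.9, against 12.3, 22.5 and 20.8 (1.69 ± 0.27). Its lowest knockdown library was above double the highest control. Rnf225 (1.24), Rnf26 (0.96) and Rnf5 (0.73), a ligase of protein quality control at the endoplasmic reticulum, were higher too, while Rnf19a (-1.04), Rnf19b (-0.96), Rnf157 (-0.81) and Rnf166 (-0.67) were lower.

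Among Trim genes, Trim59 was the highest, with 294, 221 and 191 normalized counts in knockdown, against 98.8, 112 and 121 in the controls, without overlap (1.07 ± 0.17). Trim71, the mammalian LIN-41 protein and a target of let-7 microRNAs, had 97.7, 91.2 and 72.1, against 120, 135 and 142. All its knockdown libraries were below every control by a modest step (-0.61 ± 0.15). Trim25, which ubiquitinates the RNA sensor RIG-I in human cells, was 0.59, Trim65 0.76, Trim7 0.63, Trim17 0.61 and Trim16 -0.61 on the log2 fold scale.

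**Figure D3:**
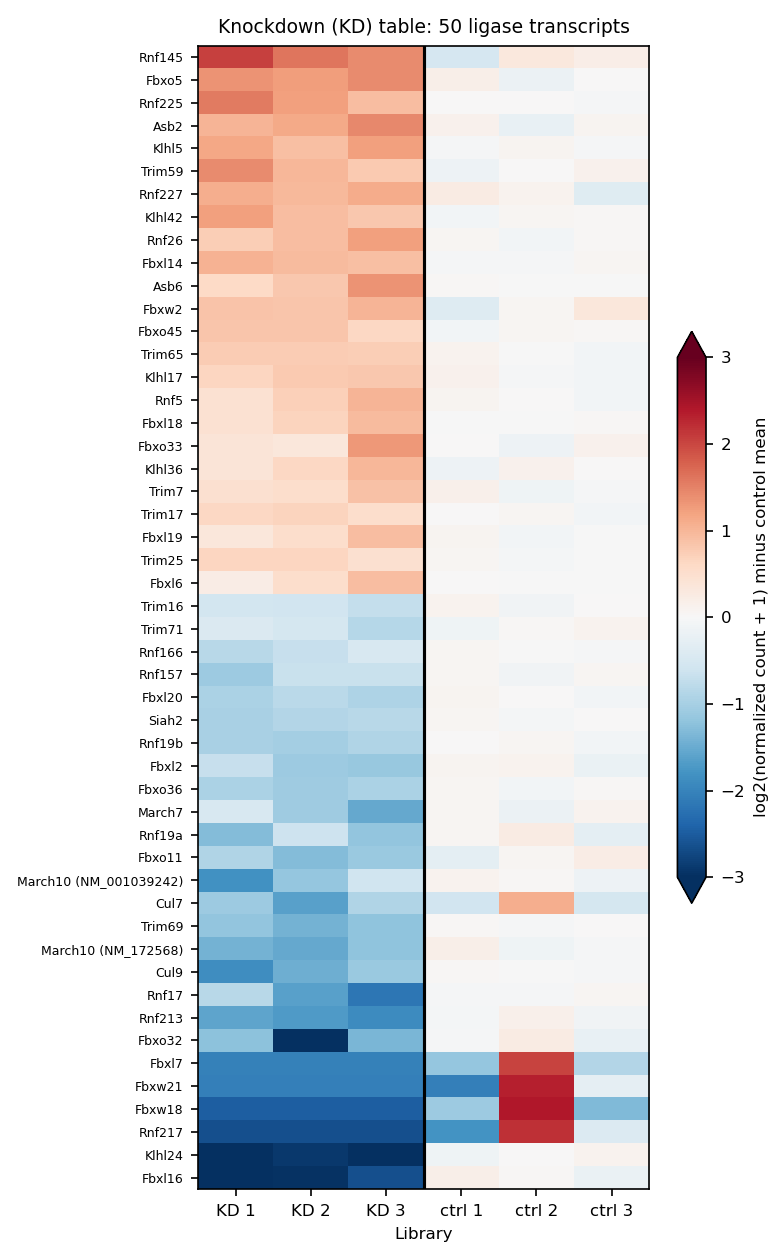
Ligase rows of the knockdown table (50 shown, vertical), ordered by their difference, in each knockdown (KD) and control (ctrl) library (horizontal). Colour gives log2(normalized count + 1) minus the mean of the 3 controls, red above it and blue below it, and values beyond 3 in either direction share the end colour. Fbxl7, Fbxw18, Fbxw21 and Rnf217 are red in control replicate 2 only.

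The cullins were both lower. Cul9, a cytoplasmic cullin that binds p53, had 57.2, 75.6 and 97.0 normalized counts in knockdown, against 217, 211 and 207 in the controls. The controls were close together and at least double each knockdown library, with a log2 fold of -1.49 ± 0.19. Cul7, the scaffold mutated in human 3-M syndrome, had 21.8, 14.8 and 24.9, against 31.9, 103 and 33.1. Control replicate 2 was about 3 times the other controls. The log2 fold was -1.21 ± 0.44, with -0.67 without control replicate 2, and without knockdown replicate 2 it did not pass (-1.005, limma, adjusted p = 0.080).

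Siah2, a ligase that degrades oxygen-sensing prolyl hydroxylases, had 331, 352 and 364 in knockdown, against 676, 623 and 661, with tight groups (-0.90 ± 0.09). Asb6 had 693, 797 and 1171, against 466, 455 and 449. Knockdown replicate 3 was the highest, and all 3 lay above the controls (0.92 ± 0.18).

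March7, also called axotrophin, is the only listed gene of these families that was also among 14 ligases known to bind USP7 or be deubiquitinated by it. It had 441, 291 and 209 normalized counts in knockdown, against 639, 542 and 664 in the controls. The knockdown libraries spread over a 2-fold range without reaching the controls, and the log2 fold was -1.03 ± 0.24 (limma, adjusted p = 0.0024). Ring1, a Polycomb ligase and the other listed gene of the 14, was lower as well (-0.59 ± 0.15).

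Fbxl7, Fbxw18, Fbxw21 and Rnf217 had 0 reads in all 3 knockdown libraries and were too low for the test. In the controls, replicate 2 held 18 of the 20 reads of Fbxl7, 33 of the 36 of Fbxw18, 23 of the 25 of Fbxw21 and 32 of the 36 of Rnf217. Replicates 1 and 3 held 0 to 3 reads of each, so without replicate 2 these genes were at or near 0 in both groups. The 3 listed smooth muscle markers summed to 178 to 213 normalized counts in the knockdown libraries and to 400, 1296 and 361 in control replicates 1 to 3. The 2 listed endothelial markers summed to 0 to 8.31 in knockdown and to 12.3, 75.3 and 14.7 in the controls. Replicate 2 was the highest control for the defining markers Acta2 (722) and Cdh5 (50.2). It was also the highest for the oocyte marker Nobox (controls 1.63, 33.8 and 1.22) and the germ cell marker Ifitm3 (5.72, 44.2 and 7.35). For the 5 tested germ cell markers it was not the highest. Of the 3 listed fibroblast markers it was the highest control for the collagens Col1a1 (735) and Col1a2 (817) and not for Vim, which had 6572, 6725 and 7661 in knockdown, against 4398, 4461 and 4521 in the controls. Markers of smooth muscle were 3 listed of 7, of endothelium 2 of 6 and of fibroblasts 3 of 9. Those of the oocyte were 1 of 7 and of germ cells 6 of 13. The part of all these markers in these values was not tested.

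Without control replicate 2, 46 of the 47 tested rows passed, 23 higher and 23 lower. Of all 2902 tested transcripts 2883 then passed, with 49.3% of the calls higher. Scaling moved the higher rows more than any single library did. Scaled to the total of the listed transcripts, which shifted the median of all tested transcripts by -0.81, 3 of the 24 higher rows still passed (15.3% of all calls were then higher) and 12 of the 24 had a fold below 0. With Rn45s left out of the total, a shift of -0.46, 15 of the 24 passed (39.9% of all calls were then higher) and none reversed. The 23 lower rows passed under both.

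**Figure D4:**
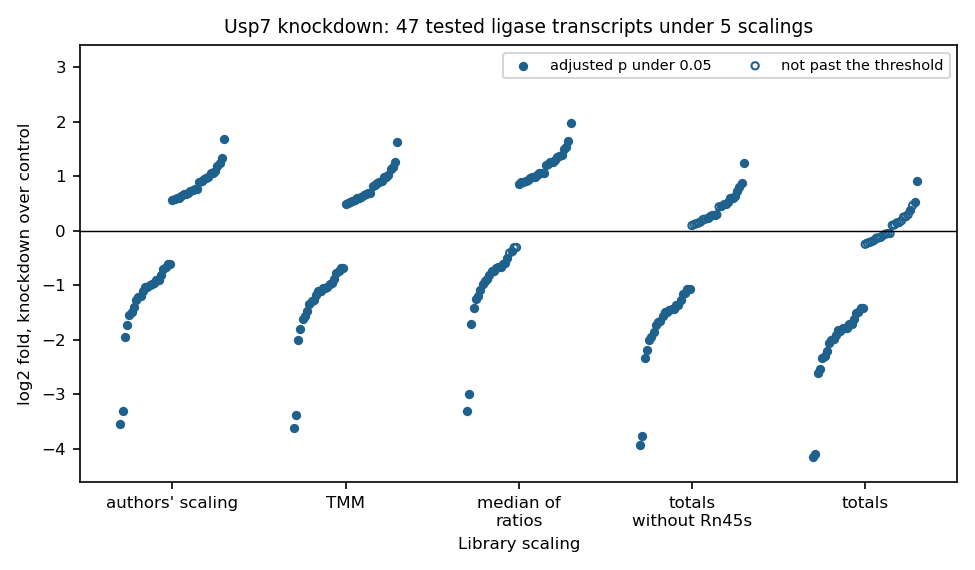
Log2 fold of knockdown over its control (vertical axis) of the 47 tested ligase transcripts under 5 library scalings (horizontal axis), in the order of the folds with the authors' scaling. Filled points passed at an adjusted p under 0.05, open points did not. With totals of the listed transcripts 3 higher rows passed, against 24 with the authors' scaling.

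Partners and relatives of these families come from 4 lists, beside which 49.1% of all tested knockdown transcripts were higher and 50.7% lower. Of 70 partners of cullin ligases 15 were listed and 14 tested, with 9 higher and 5 lower. Cyclin F (Ccnf), the founding F-box protein, had 1033, 1077 and 1257 normalized counts in knockdown, against 287, 268 and 265 in the controls (log2 fold 2.03 ± 0.11). That is the largest change in this list, with no overlap. Next by size were the adaptor Kbtbd11 (-1.52), Ube2f, a conjugating enzyme for NEDD8 (-1.27), and the SOCS box protein Cish (1.27). Cish was thus higher in knockdown as well as in overexpression. Of smaller size, Skp1a, which links F-box proteins to CUL1, was 1.01 on the log2 fold scale. The RING subunit Rbx1 was 0.97 and Nedd8, whose attachment activates cullins, 0.83. The scaffolds Cul7 and Cul9 were lower, as given above. With scaling to the total of the listed transcripts, increases of this size were close to the shift of -0.81.

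Of 18 genes of the anaphase-promoting complex and its cofactors 3 were listed, and all were higher: the conjugating enzyme Ube2c (2.02 ± 0.11), the coactivator Cdc20 (1.19 ± 0.18) and the subunit Cdc26 (0.83 ± 0.11). Ube2c had 1716, 1926 and 2195 normalized counts in knockdown, against 493, 493 and 443 in the controls. Of 81 other RING and U-box ligases 12 genes were listed, 2 higher and 10 lower. Ubr2, a ligase of the N-degron pathway needed for meiosis in mouse males, was lowest (-2.32 ± 0.38). Peli2 (-1.66 ± 0.20), Mib2 (-1.53 ± 0.29) and Znrf4 (-1.44 ± 0.31) followed. Znrf4 was thus lower in knockdown as well as in overexpression. Neurl1b was highest (1.29 ± 0.11). Of 21 HECT ligases Ube3c was higher (0.77 ± 0.10) and Hace1 lower (-0.72 ± 0.18).

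Of the ligase transcripts, 5 were listed in both tables, which is 50% of the overexpression rows and 9.8% of the knockdown rows. March10, Rnf17, Trim69 and Fbxo36 were higher with overexpression and lower with knockdown, and Asb2 was higher in both. Of the 436 transcripts called in both tables, 318 (72.9%) had the pattern of the first 4 genes, 36 that of Asb2, 75 were lower in both, and 7 had the reverse of the first pattern. The tables were normalized separately, so levels were not set across them.

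In knockdown, the transcript of March10 listed in both tables had 150, 138 and 173 normalized counts, against 455, 370 and 392 in the controls (-1.40 ± 0.13). A further March10 transcript had 38.5, 60.8 and 90.1, against 148, 141 and 124 (-1.19 ± 0.27), and as transcripts of 1 gene the 2 rows may share reads. Neither overlapped its controls. Rnf17 had 67.6, 38.96 and 26.3, against 119, 119 and 127, with knockdown libraries that spread widely below tight controls (-1.54 ± 0.29).

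Trim69 had 42.6, 35.8 and 41.6 normalized counts in knockdown, against 99.7, 94.4 and 98.0 in the controls (-1.27 ± 0.15). Fbxo36 had 65.5, 60.0 and 65.1, against 132, 119 and 130 (-0.98 ± 0.13). For both genes the knockdown libraries lay within a narrow band far below the controls. Asb2 had 253, 272 and 339 in knockdown, against 136, 107 and 131, again without overlap (1.20 ± 0.15).

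**Figure D5:**
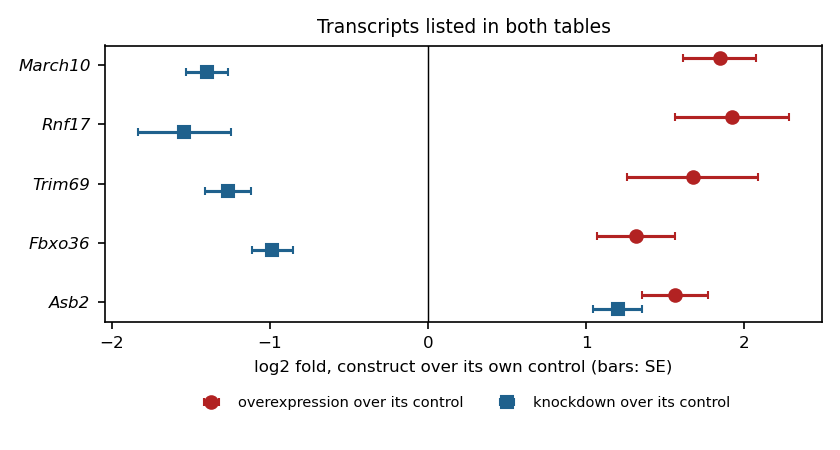
Log2 fold (horizontal axis, bars are the SE, n = 3 per group) of the 5 ligase transcripts listed in both tables, for overexpression over its control (red circles) and for knockdown over its control (blue squares). March10, Rnf17, Trim69 and Fbxo36 lie right of 0 in overexpression and left of it in knockdown, and Asb2 lies right of 0 in both.

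Under the median of ratios the overexpression folds of Rnf17, Trim69, Fbxo36 and Asb2 did not pass, as given above. With TMM factors Rnf17 (1.23), Trim69 (0.97) and Asb2 (0.81) passed, and scaled to the total of the listed transcripts all 4 did (1.25 to 1.86). The knockdown decreases of March10, Rnf17, Trim69 and Fbxo36 passed under every scaling run, and the knockdown increase of Asb2 did too, though its log2 fold was 0.39 when scaled to the total of the listed transcripts (limma, adjusted p = 0.038). Mael, a germ cell marker, moved like the first 4, with 217, 158 and 204 normalized counts in overexpression, against 59.4, 49.9 and 64.7 in its controls, and 235, 235 and 211 in knockdown, against 580, 440 and 518 in its controls. Tex101 was 4.24 in overexpression and -1.48 in knockdown on the log2 fold scale. The part of germ cell number in the ligase values was not tested.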

How the data were processed

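RNA-seq libraries (Illumina TruSeq RNA kit, total RNA taken with Trizol, per the labels) were processed by the authors. Bowtie 0.12.2 and the build mm10 (GRCm38) stand in the submitters' processing notes, without their role. The sources used here name no counter, no strand setting and no test, so reads of genes that overlap on opposite strands cannot be told apart.

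The authors deposited 1 table per construct, holding a normalized signal per library (reads divided by 1 size factor), a log2 fold change with its SE, a test statistic (a score, not used here) and p-values. Both tables hold only transcripts past the authors' test, with a smallest fold of 1.5 and a largest adjusted p of 0.0500 in the authors' deposited tables, so calls made on them are no independent evidence of change. Total depth per library is unknown. Deposited values were whole multiples of 1 read per library (within 0.001 of a read, 100% of values), in all 12 columns. Whole reads were set down as recovered for 10 columns. That number was entered as a setting, and no check computed here names the columns left out. Reads quoted for overexpression rest on the step alone, and only the knockdown table was given to count models, where edgeR 4.0.16 and DESeq2 1.42.0 called 2902 transcripts each.

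Folds of each construct over its own control were fitted here in R 4.3.3 by limma 3.58.1 on log2(normalized count + 1), letting the variance follow a trend. A transcript entered if 3 or more libraries reached 10 and its total reached 15. The p-values were adjusted by Benjamini-Hochberg over the whole table, with a threshold of 0.05. The fit was also run on simulated data in which only a part of the transcripts was changed. Nearly every transcript here was selected as changed, so that run is no check of these calls. The members and gene lists were chosen with earlier results of these data known. Values per library are given for every ligase row of the overexpression table, every row in both tables, the highest and lowest fold per family among called knockdown rows with a mean of at least 100, and March7, a ligase that binds USP7. Rnf145, Fbxo32, Fbxl16, Cul7, Acta2, Cdh5, Col1a1, Col1a2, Vim, Nobox, Ifitm3 and the 4 rows at 0 were added after their values were seen. Other ubiquitin genes come from lists, with up to 4 called genes of the largest absolute fold planned per list. Skp1a, Rbx1, Nedd8 and Neurl1b stand outside that plan. The values of 1 ligase row are not reported here, though the counts include it. Alternatives were the pseudocount, the filter, the library scaling, the variance trend, a replicate block, count models and leaving out each library. Marker lists of the oocyte, fibroblasts, leukocytes, granulosa, epithelium and skeletal muscle had 1, 3, 2, 0, 2 and 0 genes listed for knockdown and none for overexpression.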

Additional observations from a re-analysis of the deposited data

How the results depend on the processing

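Pseudocounts of 0.5 and 5, no variance trend, edgeR and DESeq2 (knockdown) kept every tested ligase row past the threshold and in its direction. Without the filter 10 rows passed in overexpression, as did all 648 transcripts, and 48 in knockdown, where 3096 of all 3156 did. The main changes came from library scaling. In overexpression the median of ratios left 4 ligase rows called, 1 higher and 3 lower, of 477 transcripts called (47.4% higher), with Fbxl5 at -0.10. TMM left 7, of 519 called. In knockdown the total of the listed transcripts left 26 rows, 3 higher and 23 lower, of 1756 transcripts called. Its reversed folds were Klhl17 -0.059, Fbxl18 -0.12, Fbxl19 -0.21, Klhl36 -0.13, Trim25 -0.23, Trim7 -0.17, Trim17 -0.20, Trim65 -0.049, Fbxo33 -0.13, Fbxl6 -0.25, Fbxo45 -0.049 and Rnf5 -0.079, and 9 more did not pass. With Rn45s left out of the total 38 passed, 15 higher, of 2452 called (39.9% higher). The median of ratios left 44 in knockdown, of 2822 called, with Trim71 and Trim16 among those that did not pass. These scalings rest on a table of transcripts selected as changed, and their causes were not tested. Leaving out each library in turn left 9 rows called in overexpression, of 613 transcripts called. In knockdown it left 46 to 47, of 2879 to 2897 called.

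The replicate numbers gave no sign of pairing: deviations of same-numbered libraries correlated at -0.04, -0.11 and 0.05 in overexpression and -0.07, -0.02 and -0.10 in knockdown. Differently numbered libraries correlated at -0.13 to 0.17 in overexpression and -0.02 to 0.10 in knockdown. With 3 libraries per group, in tables selected for a group difference, these values cannot exclude pairing. With the number as a block, 9 ligase rows (6 higher, 3 lower) of 613 transcripts and 47 (24 higher, 23 lower) of 2898 were called, as without it. Rows at or near 0 are limited by depth.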
